A study of Mus musculus and Homo sapiens with 15 samples.

Results

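Sparcl1, Gja1, Slc1a2, Slc1a3, Aqp4, Glul, Apoe and Clu are genes that astrocytes, the star-shaped support cells of the brain, express strongly, and the C-to-U edits on their transcripts were followed through INSCRIBE libraries of mouse brain sections. They are 8 of the 20838 genes named in the edit cluster labels of the 9 brain libraries. The genes were chosen because earlier results of these data showed edits on astrocyte transcripts in sections that received enzyme and no antibody, so their enzyme-only values describe that choice and do not test it. Sections with antibody also received the enzyme, so their comparisons with buffer-only sections are not independent of the choice either. Edit clusters were taken where the label names the gene, together with the edited sites inside them on the same strand. Each library gave 154 to 295 such clusters, or 0.105 to 0.144% of all its clusters.

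INSCRIBE edits RNA inside fixed cells or tissue. A primary antibody finds an RNA-binding protein, and Apo1-Nb, the cytidine deaminase APOBEC1 joined to a nanobody that holds the antibody, then turns nearby C into U, which is read as C-to-T in the sequence. The 3 groups were RBFOX2-INSCRIBE sections, given rabbit antibody to the splicing regulator RBFOX2 and then Apo1-Nb, enzyme-only sections, given Apo1-Nb without the antibody, and buffer-only sections, given neither (n = 3 libraries each). Every section came from the brain of a wild-type female C57BL/6J mouse aged 2 months and carried no transgene or deletion. The sample titles name PFA as the fixative, whereas the written protocol for brain tissue describes methanol. Each library was 1 coronal slice of 20 µm, and 2 mice at most gave all 9 slices, so p-values measure the spread between slices that share animals. A slice holds neurons, oligodendrocytes, microglia and vessels beside astrocytes, and in such whole sections fewer cells of a type and less RNA per cell cannot be told apart.

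Astrocytes clear glutamate from the synapse, pass it to neurons as glutamine, share ions and small molecules through gap junctions, move water at the vessels and supply the brain with lipoproteins. APOBEC1 is best known for editing the apolipoprotein B transcript in the intestine, and it works most readily on a C that follows an A or a U. Its action on any exposed C without an antibody is the background that an enzyme-only section measures, while a buffer-only section measures C-to-U mismatches that arise without the enzyme.

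Sites that are described below are printed here. They were taken from the sites of each gene that passed the filter given below in the most libraries, with ties broken by edited reads, so a site enters through the groups in which it passes. Each line gives a 21 nt window of the transcript strand, written as DNA on GRCm38 (mm10), with the edited C and the base before it in capitals. The first coordinate is that of the edited C.
Sparcl1 site 1 (chr5:104079485, minus strand, 3′ UTR): ttcagaaatACgagcagccat
Sparcl1 site 2 (chr5:104079423, minus strand, 3′ UTR): tgagagaagACaatggtagta
Sparcl1 site 3 (chr5:104079408, minus strand, 3′ UTR): gtagtaattACttcttggtga
Slc1a2 site 1 (chr2:102789041, plus strand, 3′ UTR): tagcctgttACatagatgaca
Slc1a2 site 2 (chr2:102788294, plus strand, 3′ UTR): gcacacattTCtatagcaatt
Slc1a2 site 3 (chr2:102788258, plus strand, 3′ UTR): tataaaaccACatagatagaa
Gja1 site 1 (chr10:56389918, plus strand, 3′ UTR): atgtgagagACttagaagagg
Gja1 site 2 (chr10:56388974, plus strand, 3′ UTR): ttggatgaaACatagataggg
Slc1a3 site 1 (chr15:8634334, minus strand, 3′ UTR): catttttcgACactagttgaa
Glul site 3 (chr1:153909607, plus strand, 3′ UTR): agataactcACtgtaaacaga
Over the 7 genes whose sequence was read, the sites that passed in the most libraries (up to 3 per gene, 21 in all) had A or U before the edited C in 19 cases, A in 14 of them, and 12 of the 21 sites lay in a 3′ UTR.

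A filtered and an unfiltered site list were used, since the choice decides several values. The libraries held 281561 to 533844 listed sites with at least 1 edited read. The filtered list keeps sites with a SAILOR score above 0.5 and an edited fraction below 0.8, which left 159087 to 281314 sites, and 184343 to 319505 edited reads in clusters per library. Of the filtered sites, 88.4 to 91.3% rested on 1 edited read, and a site with 1 edited read passed only where at most 69 reads covered it. Levels below are edited reads of filtered sites inside the clusters of a gene, as CPM, the count scaled to the edited reads in clusters of the library with TMM factors. A gene counted as changed when edgeR's quasi-likelihood test, with p adjusted over 9509 genes, passed 0.05. Of these genes 1.74% were called between RBFOX2-INSCRIBE and enzyme-only sections, 1.70% between RBFOX2-INSCRIBE and buffer-only sections, and 0.273% between enzyme-only and buffer-only sections.

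In outline, 6 of the 8 genes had enough edited reads to be tested. None of the 6 was called between RBFOX2-INSCRIBE and enzyme-only sections, beside 1.74% of all genes. In simulated data for this comparison 30% of genes changed 2-fold were recovered, so the test can miss a change of that size. Taken gene by gene, the 95% interval of the log2 change included a 2-fold change for Gja1 (-1.34 to 0.15) and Glul (-0.36 to 1.12). It excluded a 2-fold change in either direction for Sparcl1 (-0.0013 to 0.61) and Slc1a2 (-0.12 to 0.35). The same held for Slc1a3 (-0.44 to 0.47) and Aqp4 (-0.59 to 0.495). Sparcl1 and Slc1a2 were called higher in RBFOX2-INSCRIBE than in buffer-only sections, beside 1.42% of all genes. At filtered sites the margin was large for Sparcl1 and small for Slc1a2. Over every listed site on the gene the log2 change was 0.34 for Sparcl1 and 0.36 for Slc1a2. On the contrast that led to the choice, enzyme-only lay above buffer-only without overlap for Sparcl1, Gja1, Slc1a2, Slc1a3 and Aqp4, beside 8.26% of all genes. For Glul these 2 groups overlapped. Apoe and Clu, with 8 and 40 filtered edited reads over the 9 libraries, hardly entered the filtered lists, so the name of a gene set edited without antibody rests on the other genes.

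Slc1a2 encodes GLT-1, the transporter that removes most glutamate from the forebrain synapse. It spans 132 kb and gave 63.7 to 74.6% of the clusters of the 8 genes in each library, a count that is not per length. Its level was 1628, 1188 and 1782 CPM in the RBFOX2-INSCRIBE libraries, against 1309, 1536 and 1389.5 CPM in the enzyme-only libraries. The buffer-only libraries had 1139, 1114 and 994.5 CPM. Every library with enzyme lay above every buffer-only library, and RBFOX2-INSCRIBE and enzyme-only libraries overlapped. Edits on Slc1a2 were thus frequent in sections without enzyme too. The log2 change of RBFOX2-INSCRIBE over buffer-only was 0.49 ± 0.13 (SE), with an adjusted p of 0.0132 in the edgeR fit, and that over enzyme-only was 0.11 ± 0.12, with an adjusted p of 0.762. The call against buffer-only was lost when RBFOX2-INSCRIBE replicate 1 (adjusted p = 0.0686) or replicate 3 (adjusted p = 0.252), or buffer-only replicate 2 (adjusted p = 0.0565) or replicate 3 (adjusted p = 0.154), was left out of the edgeR fit. With the mean cover of the counted sites as an offset the log2 change was 0.015 (edgeR adjusted p = 0.984).

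The edited reads of Slc1a2 were divided between its introns and its 3′ UTR. Intronic filtered reads numbered 285, 228 and 245 in RBFOX2-INSCRIBE libraries, 208, 262 and 239 in enzyme-only libraries and 166, 142 and 125 in buffer-only libraries. In the 3′ UTR there were 246, 164 and 232 reads with antibody and enzyme, 119, 153 and 108 with enzyme only and 123, 59 and 55 with buffer. These are counts before scaling, and RBFOX2-INSCRIBE libraries held the most and buffer-only libraries the fewest edited reads in clusters. Scaled, the 3′ UTR level was 748.5, 495 and 856 CPM in RBFOX2-INSCRIBE, 472, 563 and 429 CPM in enzyme-only and 481, 322 and 302 CPM in buffer-only libraries. RBFOX2-INSCRIBE and enzyme-only libraries then overlapped in the 3′ UTR, as did enzyme-only and buffer-only libraries, while RBFOX2-INSCRIBE stayed above buffer-only. The scaled intronic level was 867, 688 and 904 CPM in RBFOX2-INSCRIBE and 825, 965 and 949 CPM in enzyme-only libraries. Buffer-only libraries had 650, 776 and 687 CPM. In the introns RBFOX2-INSCRIBE overlapped both other groups, while enzyme-only stayed above buffer-only.

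Slc1a2 site 1 passed the filter in all 9 libraries. Its edited fraction was 4.07, 2.77 and 3.78% in RBFOX2-INSCRIBE sections, 3.94, 4.87 and 4.26% in enzyme-only sections and 2.10, 2.62 and 2.5% in buffer-only sections, under 960 to 1523 covering reads. Both groups with enzyme lay above the buffer-only group without overlap. At Slc1a2 site 2 the means were 2.21 ± 0.33%, 2.59 ± 0.98% and 1.91 ± 0.23% (SD, n = 3) with antibody and enzyme, enzyme only and buffer only. Slc1a2 site 3 averaged 3.49 ± 1.30% in RBFOX2-INSCRIBE, 2.35 ± 0.81% in enzyme-only and 2.82 ± 0.53% in buffer-only sections. At sites 2 and 3 the buffer-only fractions overlapped those of both other groups, so no difference beyond the spread between libraries could be seen there.

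**Figure D1:**
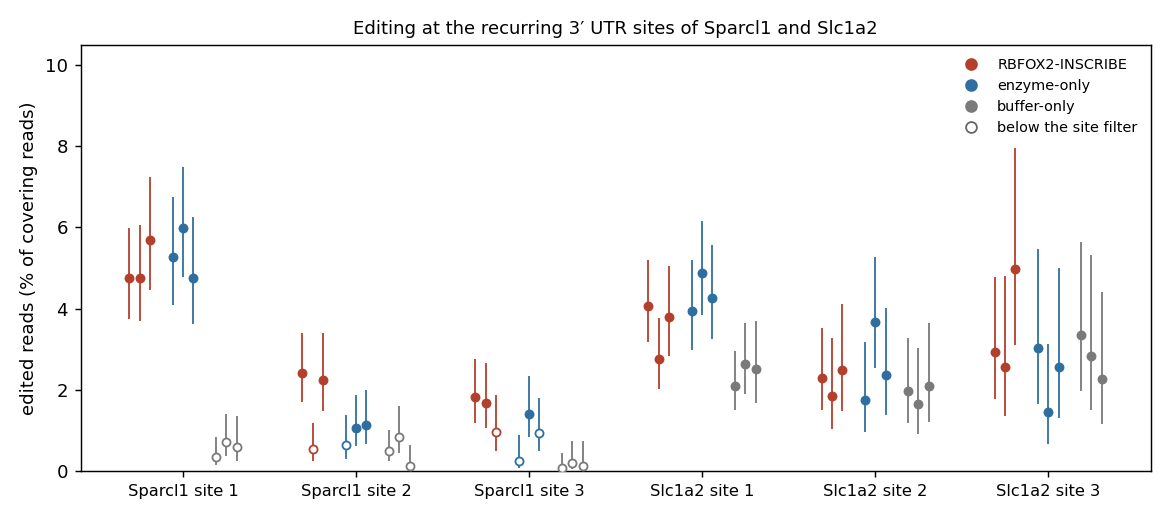
Percent of covering reads that were edited at 3 sites each of Sparcl1 and Slc1a2, 1 point per library in the order RBFOX2-INSCRIBE, enzyme-only and buffer-only, with Wilson 95% intervals for counting error and open points for libraries in which the site did not pass the filter. Sparcl1 site 1 stood at 4.74 to 5.99% in the 6 libraries with enzyme and at 0.355 to 0.713% in buffer-only libraries, whereas Slc1a2 sites 2 and 3 showed no gap between the groups.

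Slc1a3 encodes GLAST, the second glutamate transporter of astrocytes. It had 143, 148 and 169.7 CPM in RBFOX2-INSCRIBE libraries, 214, 125 and 115 CPM in enzyme-only libraries and 102, 65.5 and 98.9 CPM in buffer-only libraries. All libraries with enzyme lay above those with buffer only, the nearest pair being 115 and 102 CPM. Against buffer-only the log2 change of RBFOX2-INSCRIBE was 0.76 ± 0.27 (edgeR adjusted p = 0.154), which did not pass the test. Against enzyme-only it was 0.02 ± 0.23 (edgeR adjusted p = 0.983), with a 95% interval of -0.44 to 0.47. Most of its filtered reads were intronic, 28 to 40 per library with antibody, 24 or 25 with enzyme only and 10 to 17 with buffer only. Its site 1, in the 3′ UTR, was edited in 10 of 770 covering reads in RBFOX2-INSCRIBE, 12 of 743 in enzyme-only and 5 of 481 in the 2 buffer-only libraries that list it.

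Glul encodes glutamine synthetase, which turns the glutamate taken up by astrocytes into glutamine. Its level was 51.7, 51.3 and 92.3 CPM with antibody and enzyme, 83.3, 33.1 and 31.8 CPM with enzyme only and 19.6, 38.2 and 33.0 CPM with buffer only. Enzyme-only and buffer-only libraries overlapped, while each RBFOX2-INSCRIBE library lay above each buffer-only library. The log2 change of RBFOX2-INSCRIBE over buffer-only was 1.12 ± 0.44 (edgeR adjusted p = 0.227), and that over enzyme-only was 0.38 ± 0.38 (edgeR adjusted p = 0.742). Its filtered values rest on few reads, since a median of 1311 to 2098 reads covered its listed sites and 1.92 to 5.93% of these sites passed. Site 3 of Glul, in the 3′ UTR, was edited in 25 of 3367 covering reads in RBFOX2-INSCRIBE, 26 of 3029 in enzyme-only and 7 of 2920 in buffer-only sections. It passed the filter in 1 enzyme-only library.

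Gja1 encodes connexin 43, the main gap junction channel between astrocytes. It had 45.6, 30.2 and 59.0 CPM in RBFOX2-INSCRIBE libraries, 47.6, 55.2 and 99.3 CPM in enzyme-only libraries and 11.7, 10.9 and 27.5 CPM in buffer-only libraries. No buffer-only library reached any library with enzyme, although these levels stand for 10 to 25 edited reads with enzyme and 2 to 5 without. The log2 change of RBFOX2-INSCRIBE was 1.43 ± 0.52 over buffer-only (edgeR adjusted p = 0.178) and -0.59 ± 0.38 over enzyme-only (edgeR adjusted p = 0.521), neither of which passed. Of the 103 filtered reads of Gja1 over all libraries, 73 lay at sites that passed in 1 library. Its site 1 was listed in 5 of the 6 libraries with enzyme and in none with buffer only. A site missing from a list has no recorded cover, so its fraction there is unknown.

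Aqp4 encodes aquaporin 4, the water channel of astrocyte end-feet at blood vessels. Its level was 94.3, 93.5 and 129 CPM with antibody and enzyme, 115, 110.5 and 99.3 CPM with enzyme only and 31.3, 98.3 and 54.9 CPM with buffer only. Buffer-only replicate 2 lay among the RBFOX2-INSCRIBE libraries and just below the lowest enzyme-only library. The log2 change of RBFOX2-INSCRIBE was 0.83 ± 0.32 over buffer-only (edgeR adjusted p = 0.228) and -0.05 ± 0.28 over enzyme-only (edgeR adjusted p = 0.954). Its sites were covered least of the 8 genes, by a median of 31 to 76 reads, and 46.7 to 82.1% of them passed the filter.

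Sparcl1 encodes a secreted matrix protein related to SPARC that promotes synapse formation. It had 520.3, 335 and 454 CPM in RBFOX2-INSCRIBE libraries, 321, 401 and 333 CPM in enzyme-only libraries and 66.5, 65.5 and 49.5 CPM in buffer-only libraries. The 6 libraries with enzyme were all several-fold above the 3 without it. Mean levels were 436 ± 94.0 CPM in RBFOX2-INSCRIBE and 60.5 ± 9.59 CPM in buffer-only sections (SD, n = 3), a log2 change of 2.82 ± 0.23 (edgeR adjusted p = 1.93e-18). This test counted only reads at sites that passed the filter in their own library. In buffer-only libraries no 3′ UTR read was counted, although such reads were listed there. Enzyme-only sections averaged 352 ± 43.2 CPM, and the log2 change of RBFOX2-INSCRIBE over them was 0.30 ± 0.16 (edgeR adjusted p = 0.378). As a description, enzyme-only over buffer-only gave 2.52 ± 0.24 on the log2 scale.

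Most of this difference lay in the 3′ UTR of Sparcl1. Filtered edited reads there numbered 143, 92 and 96 in RBFOX2-INSCRIBE libraries, 58, 97 and 66 in enzyme-only libraries and 0, 0 and 0 in buffer-only libraries. Intronic reads numbered 28, 17 and 25 with antibody and enzyme, 23, 10 and 16 with enzyme only and 17, 12 and 8 with buffer only. The size of the contrast depended on which sites were counted. The log2 change of RBFOX2-INSCRIBE over buffer-only was 3.24 (edgeR adjusted p = 2.31e-17) over every listed site inside the clusters, and 2.70 (edgeR adjusted p = 5.23e-16) over filtered sites anywhere on the gene. With neither the filter nor the limit to clusters, the 3′ UTR held 240, 164 and 187 edited reads with antibody and enzyme, 124, 167 and 122 with enzyme only and 33, 48 and 25 with buffer only. Over every listed site on the gene, a fit chosen after seeing the data, the log2 change was 0.34 ± 0.10 (edgeR adjusted p = 0.0181). With the mean cover of the filtered sites as an offset it was -0.39 (edgeR adjusted p = 0.909), a mean that was 108 to 215 reads with antibody and enzyme, 61.0 to 268 reads with enzyme only and 13.7 to 18.6 reads with buffer only.

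At single bases the same gene could be read without the filter. Sparcl1 site 1 was edited in 66 of 1391, 59 of 1244 and 61 of 1073 covering reads in RBFOX2-INSCRIBE libraries, or 4.74, 4.74 and 5.69%. In enzyme-only libraries the fractions were 5.27, 5.99 and 4.76%. In buffer-only libraries they were 0.355, 0.713 and 0.585%, from 5 to 8 edited reads under 854 to 1409 covering reads. The highest Wilson 95% bound in buffer-only libraries was 1.40% and the lowest bound in any library with enzyme was 3.61%, both for counting error only. The site passed the filter in the 6 libraries with enzyme and in 0 of the 3 with buffer only, and was chosen by the number of libraries in which it passed, so this gap is a description. With and without antibody the fractions overlapped.

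Sparcl1 sites 2 and 3 were weaker. At site 2 the fractions were 2.41, 0.540 and 2.24% with antibody and enzyme, 0.638, 1.07 and 1.14% with enzyme only and 0.495, 0.841 and 0.115% with buffer only, so all 3 groups overlapped. Site 3 had 1.81, 1.68 and 0.949% in RBFOX2-INSCRIBE, 0.243, 1.40 and 0.945% in enzyme-only and 0.0791, 0.206 and 0.132% in buffer-only libraries. There the groups with enzyme lay above the buffer-only group.

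A UGCAUG hexamer, the element that RBFOX proteins bind, lies between these sites in the Sparcl1 3′ UTR, and is shown for that reason with its 6 letters in capitals, as DNA on the minus strand (chr5:104079427-104079447).
Sparcl1 hexamer: catttgttTGCATGtgagaga
The hexamer stands at chr5:104079434-104079439. Counted from the first base of the hexamer on the transcript strand, site 1 lies 46 nt upstream, and sites 2 and 3 lie 16 nt and 31 nt downstream. A match of letters is a description, and the fractions at site 1 overlapped between sections with and without antibody.

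**Figure D2:**
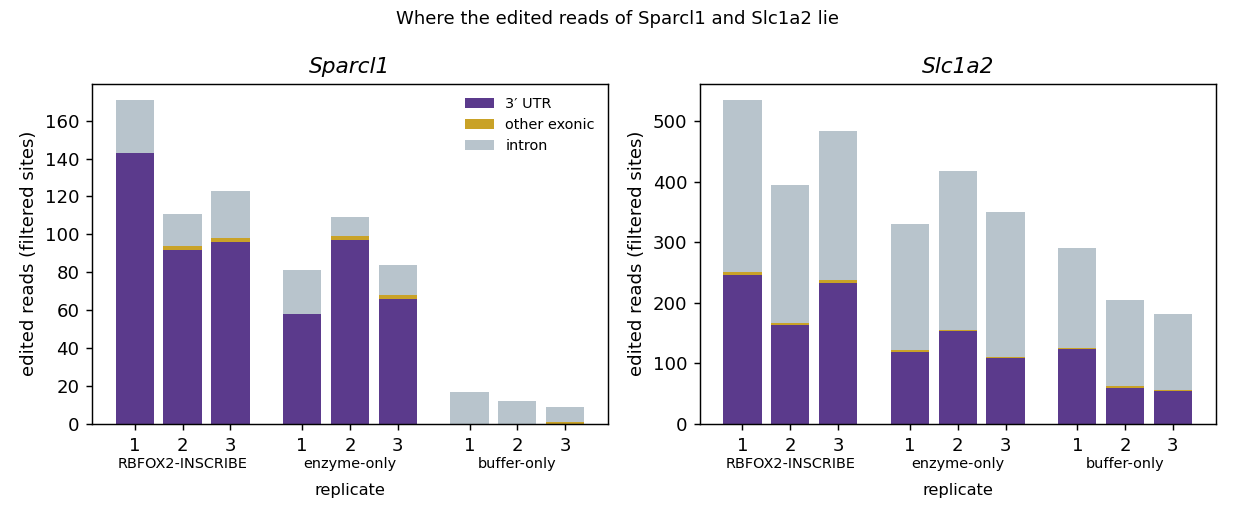
Edited reads at filtered sites of Sparcl1 (left) and Slc1a2 (right) in each of the 9 libraries, stacked by 3′ UTR, other exonic and intronic position, before scaling to library size. The Sparcl1 3′ UTR bar is 58 to 143 reads in the 6 libraries with enzyme and 0 in the 3 buffer-only libraries, while Slc1a2 has intronic and 3′ UTR reads in every library.

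Apoe encodes apolipoprotein E, the main lipid carrier made by astrocytes, and Clu encodes clusterin, a secreted chaperone also called apolipoprotein J. Apoe had 3.04, 0 and 0 CPM with antibody and enzyme, 3.97, 3.68 and 15.9 CPM with enzyme only and 3.91, 0 and 0 CPM with buffer only. Clu had 12.2, 12.1 and 22.1 CPM in RBFOX2-INSCRIBE, 35.7, 11.05 and 31.8 CPM in enzyme-only and 3.91, 10.9 and 16.5 CPM in buffer-only libraries. Neither gene had the reads to be tested, and enzyme-only and buffer-only libraries overlapped for both. All 6 distinct filtered sites of Apoe and all 37 of Clu passed the filter in 1 library each.

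The unfiltered lists, in and outside clusters, held far more reads of both genes. Apoe had 54 to 103 listed sites per library under a median of 1142.5 to 1675 covering reads, of which 0 to 2.22% passed. For Clu 0.826 to 6.25% of the listed sites passed. Over every listed site on the annotated gene, the log2 change of Apoe was -0.33 ± 0.13 for RBFOX2-INSCRIBE over enzyme-only (edgeR adjusted p = 0.153) and -0.10 ± 0.14 over buffer-only (edgeR adjusted p = 0.791). Clu gave -0.21 ± 0.11 (edgeR adjusted p = 0.424) and -0.20 ± 0.12 (edgeR adjusted p = 0.409) in the same comparisons. In this fit of 7699 genes, in which 3.14% were called higher and 1.30% lower in RBFOX2-INSCRIBE than in buffer-only sections, Glul (0.63 ± 0.09), Aqp4 (0.90 ± 0.25), Slc1a2 (0.36 ± 0.08) and Sparcl1 were called higher, and Gja1 and Slc1a3 were not called. None of the 8 was called against enzyme-only, beside 1.96% of genes called higher and 0.247% called lower. For enzyme-only over buffer-only, where 0.974% of genes were called higher and 0.883% lower, the same fit gave log2 values, as a description, of 0.80 for Aqp4, 0.65 for Glul, 0.51 for Gja1, 0.44 for Slc1a2, 0.39 for Sparcl1, 0.27 for Slc1a3, 0.24 for Apoe and 0.0078 for Clu.

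**Figure D3:**
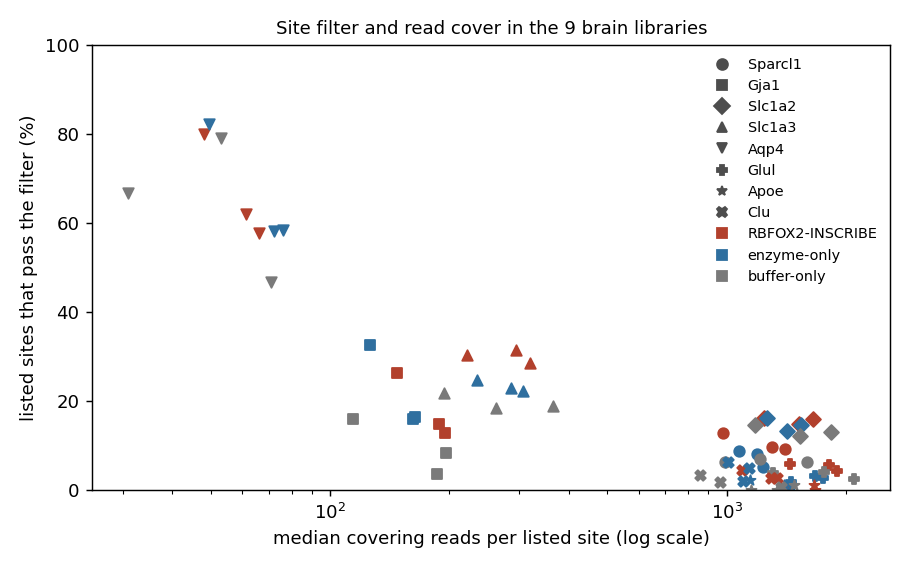
Percent of listed sites that passed the filter against the median covering reads per listed site (log scale), 1 point per gene and library, with a shape per gene and a colour per group. Aqp4 stands at 31 to 76 covering reads with 46.7 to 82.1% passing, and Apoe, at 1142.5 to 1675 reads, has at most 2.22% passing.

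Across the set, the comparison of RBFOX2-INSCRIBE with enzyme-only sections called 0 of the 6 tested genes by edgeR, beside 1.49% of all genes called higher and 0.242% called lower, and 0 of the 6 lay without overlap above enzyme-only, beside 9.26% of all genes. The median log2 change of the 6 was 0.07, beside -0.02 over all 9509 genes. Between RBFOX2-INSCRIBE and buffer-only sections 2 of 6 were called higher, beside 1.42% of all genes, and the median was 0.97 beside -0.01. In that comparison 5 of the 6 did not overlap, beside 9.02% of all genes that did not overlap with RBFOX2-INSCRIBE higher. This comparison uses the buffer-only libraries of the contrast that led to the choice, and RBFOX2-INSCRIBE sections received the enzyme too. Its shares therefore follow in part from that choice and are a description. Between enzyme-only and buffer-only sections, the contrast that led to the choice of the genes, 5 of 6 did not overlap, beside 8.26% of all genes, and edgeR called 0.210% of all genes higher and 0.0631% lower. The log2 changes there were 2.52 for Sparcl1, 2.02 for Gja1, 0.87 for Aqp4, 0.75 for Slc1a3, 0.74 for Glul and 0.38 for Slc1a2. These comparisons share their enzyme-only and buffer-only libraries, so they are not independent of each other.

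**Figure D4:**
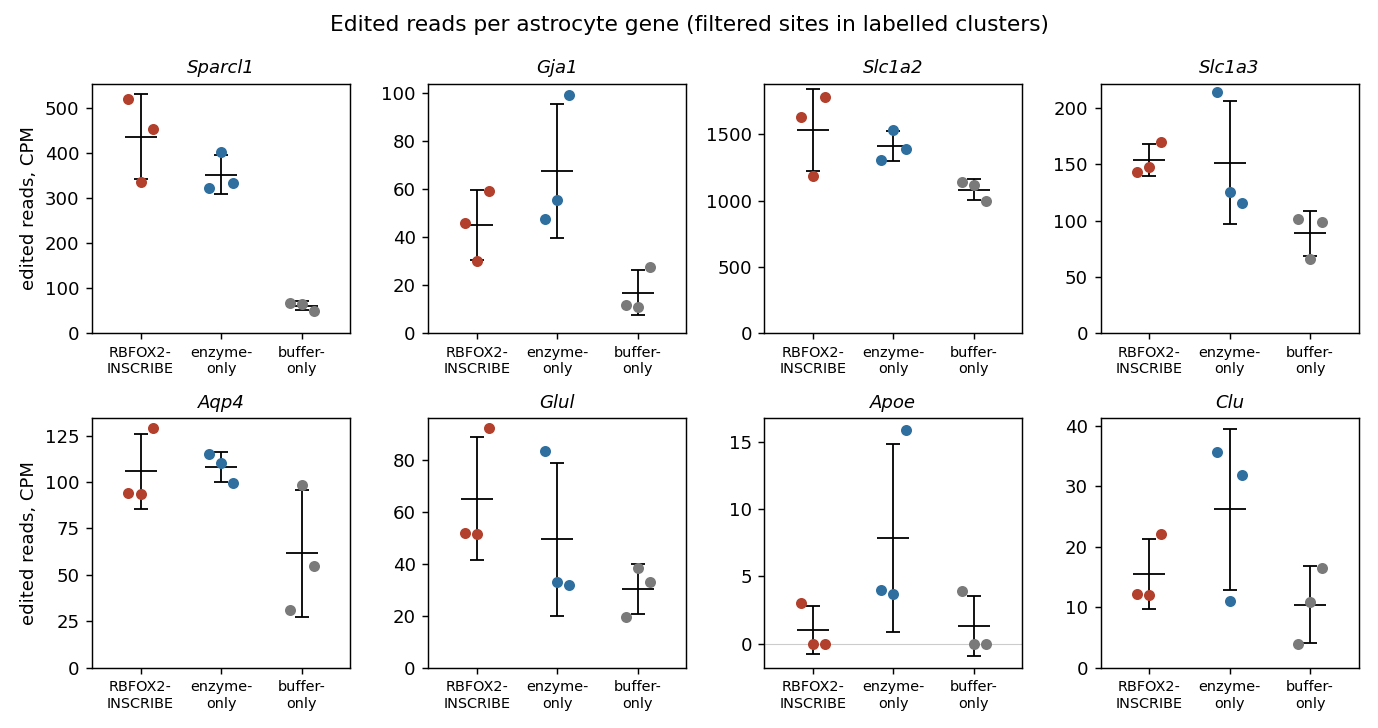
Edited reads of each of the 8 genes in CPM, 1 point per library, with bars for the mean and SD of 3 libraries per group. Sparcl1 averaged 436 CPM in RBFOX2-INSCRIBE and 352 CPM in enzyme-only against 60.5 CPM in buffer-only sections, while Apoe was at 0 in 4 of the 9 libraries.

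Over the 8 genes, the number of clusters was 295, 271 and 270 in RBFOX2-INSCRIBE libraries, 240, 263 and 259 in enzyme-only libraries and 197, 155 and 154 in buffer-only libraries. RBFOX2-INSCRIBE libraries exceeded enzyme-only libraries by 24.7 clusters on average (exact two-sided permutation p = 0.1) and buffer-only libraries by 110 clusters (exact permutation p = 0.1), where 0.1 is the smallest p that 3 against 3 libraries can give. As a share of the clusters of the library, the difference from enzyme-only reversed, to -0.0659 per 1000 clusters (exact permutation p = 0.5). The clusters were 0.132, 0.118 and 0.141% of the library with antibody and enzyme, 0.132, 0.136 and 0.144% with enzyme only and 0.105, 0.110 and 0.110% with buffer only.

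Most sites passed the filter in a single library. Of 2371 distinct filtered sites on the 8 genes, 2218 (93.5%) passed in 1 library, 115 in 2 and 38 in 3 or more. Slc1a2 held 28 of these 38 sites and Sparcl1 4. Of the 4700 edited reads, 2610 lay at sites that passed in 1 library. Such a site can be listed in others without passing, as Glul site 3 was in all 9 libraries, so these counts describe the filtered lists.

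The base before the edited C was compared next. The genes were chosen for edits in enzyme-only sections, and APOBEC1 prefers A or U there, so the gap between enzyme-only and buffer-only sections follows in part from that choice and is a description. A or U stood before the C at 69.8, 67.5 and 77.4% of the filtered sites in RBFOX2-INSCRIBE libraries, 73.8, 75.4 and 69.6% in enzyme-only libraries and 56.6, 51.6 and 60.3% in buffer-only libraries. RBFOX2-INSCRIBE exceeded buffer-only by 15.4 percentage points without overlap (exact permutation p = 0.1, the smallest possible) and differed from enzyme-only by -1.37 points with overlap (exact permutation p = 0.8). Enzyme-only exceeded buffer-only by 16.7 points, again without overlap. Over all filtered sites of the libraries RBFOX2-INSCRIBE libraries had 61.5 to 65.8%, enzyme-only libraries 61.0 to 63.2% and buffer-only libraries 51.8 to 52.5%.

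The same measure was taken for each gene over all listed edited reads, so that Apoe and Clu could be included, again as a description. Enzyme-only libraries lay above buffer-only libraries without overlap for 8 of 8 genes, beside 40.3% of the 4877 genes with at least 10 listed edited reads in every library. RBFOX2-INSCRIBE libraries lay above buffer-only libraries for 6 of 8, beside 43.0%, and above enzyme-only libraries for 0 of 8, beside 7.07%. Apoe and Clu were the exceptions against buffer-only. The median difference between enzyme-only and buffer-only was 17.3 points for the 8 genes and 10.2 points for all genes. Overlap of a percentage depends on the reads it is taken over, and the shares of all genes were not matched for these. Listed edited reads per library ranged from 14 to 50 for Aqp4 and from 1274 to 3605 for Slc1a2.

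Aqp4 had the widest gap, with 72.9, 70.0 and 86.4% A or U in RBFOX2-INSCRIBE, 88.6, 87.5 and 83.3% in enzyme-only and 56.2, 54.5 and 57.1% in buffer-only libraries. Apoe had the narrowest, with 45.7, 44.4 and 52.6% with antibody and enzyme, 51.0, 49.4 and 55.1% with enzyme only and 38.4, 42.3 and 47.8% with buffer only. Gja1 differed between the groups with enzyme, with a mean of 66.6% in RBFOX2-INSCRIBE against 78.6% in enzyme-only sections and no overlap. This gap, from 48 to 78 edited reads per library, was picked after its values were seen and carries no test.

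**Figure D5:**
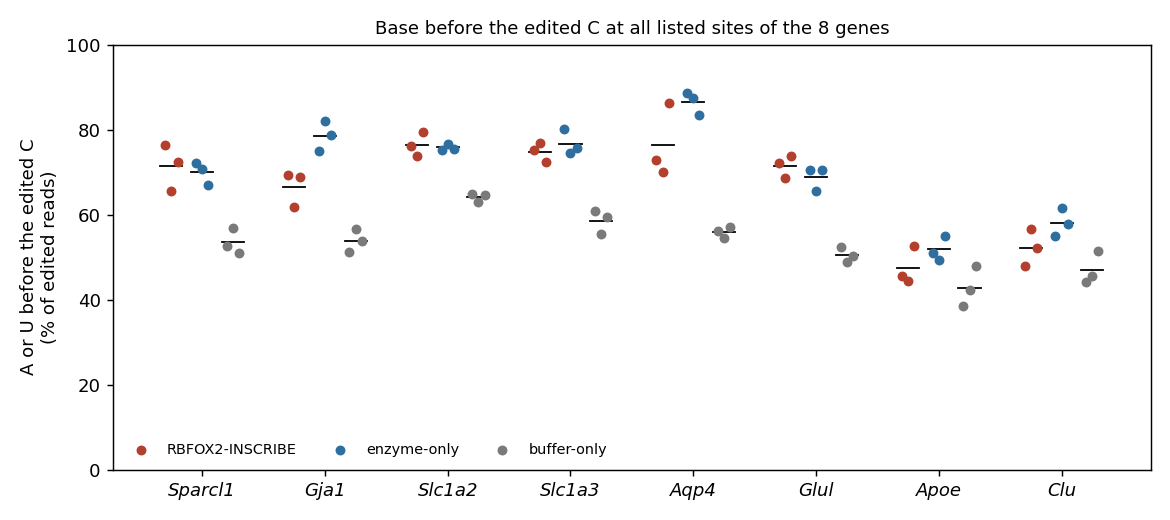
Percent of listed edited reads with A or U before the edited C for each of the 8 genes, 1 point per library, with a line at the mean of 3 libraries per group. For all 8 genes the enzyme-only points lie above the buffer-only points, by 30.5 points on average for Aqp4 and 8.99 points for Apoe.

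The position of the edits was compared as well, and the size of the differences depended on how it was counted. Exons held 54.2, 52.6 and 56.9% of the filtered edited reads of the 8 genes in RBFOX2-INSCRIBE libraries, 49.0, 50.3 and 45.8% in enzyme-only libraries and 41.2, 32.7 and 34.1% in buffer-only libraries. No 2 groups overlapped, and RBFOX2-INSCRIBE exceeded enzyme-only by 6.22 points and buffer-only by 18.6 points (exact permutation p = 0.1 for each, the smallest possible). With each site counted once instead of each read, the difference from enzyme-only was 0.970 points with overlap (exact permutation p = 0.8) and that from buffer-only 6.08 points. With sites under at least 20 reads the difference from enzyme-only was 3.11 points (exact permutation p = 0.3). The 3′ UTR reads of Sparcl1 and Slc1a2 made up most of the exonic reads. The edited share of covering reads at the filtered sites was 2.48, 2.499 and 2.89% with antibody and enzyme, 3.04, 2.99 and 3.04% with enzyme only and 2.504, 3.12 and 3.18% with buffer only. RBFOX2-INSCRIBE lay 0.399 points below enzyme-only without overlap (exact permutation p = 0.1), but the difference was -0.0966 points over every listed site (exact permutation p = 0.4) and -0.218 points where only sites with 20 or more covering reads counted (exact permutation p = 0.3). RBFOX2-INSCRIBE lay 0.308 points below buffer-only with overlap (exact permutation p = 0.2). Only sites with an edit are listed and the filter removes low fractions at high cover, so this share is that of selected sites and not an editing rate of the transcripts.

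Recurrent clusters are those shared by all 3 replicates of a group, as intersected before deposit. The study keeps the term confident for what is left after buffer-only clusters are subtracted, a step not applied in these counts. The 8 genes had 28 of 5177 recurrent clusters in RBFOX2-INSCRIBE, 16 of 4542 in enzyme-only and 5 of 2092 in buffer-only sections, or 0.541, 0.352 and 0.239%. Slc1a2 held 24 of the 28, 11 of the 16 and all 5, of which 19, 8 and 3 were intronic. Aqp4 had 3 clusters each with and without antibody and 0 with buffer only, all in its 3′ UTR. Sparcl1 had 1 in each group with enzyme and 0 with buffer only, and Gja1 had 1 in enzyme-only sections. Slc1a3, Glul, Apoe and Clu had 0 in every list. There is 1 list per group, so these counts have no replicate spread. Several of these clusters held few filtered edited reads over the 3 libraries of their group. Some Slc1a2 intronic clusters of the RBFOX2-INSCRIBE list and an Aqp4 cluster of the enzyme-only list held 1.

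Overlap between the lists was counted from 1 nt. In RBFOX2-INSCRIBE 6 of the 28 clusters (21.4%) overlapped an enzyme-only cluster, beside 6.16% of all recurrent clusters, and in enzyme-only 7 of the 16 (43.8%) overlapped an RBFOX2-INSCRIBE cluster, beside 7.13%. Apart from a Sparcl1 pair, all of these overlaps lay in Slc1a2, so they do not describe the set. The Aqp4 and Gja1 clusters overlapped none of the other list. The Sparcl1 cluster at chr5:104079397-104079501 in RBFOX2-INSCRIBE and that at chr5:104079337-104079501 in enzyme-only sections were such a pair. Both hold the UGCAUG shown above, and none of the other recurrent clusters of the 8 genes held one. Over the whole lists UGCAUG stood in 8.09% of RBFOX2-INSCRIBE, 1.96% of enzyme-only and 1.099% of buffer-only clusters. The Slc1a2 cluster around site 1, chr2:102789024-102789068, was present with the same bounds in all 3 lists, with 181 filtered edited reads in the RBFOX2-INSCRIBE list, 163 in the enzyme-only list and 90 in the buffer-only list.

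In the Slc1a2 3′ UTR 3 recurrent clusters of the RBFOX2-INSCRIBE list overlapped no cluster of the other lists. They lay at chr2:102784209-102784253 with 28 filtered edited reads, chr2:102784839-102784883 with 106 and chr2:102789204-102789248 with 18. The C with the most filtered reads in each, picked after its values were seen, is printed with the base before it in capitals.
Slc1a2 cluster A (chr2:102784225, plus strand): atagagccaTCgtagatctga
Slc1a2 cluster B (chr2:102784860, plus strand): cttttctccTCactagtcact
Slc1a2 cluster C (chr2:102789226, plus strand): gtgtagctaTCatgtaggtat
At the printed base of cluster A 1.08, 1.07 and 1.90% of the covering reads were edited in RBFOX2-INSCRIBE and 0.660, 1.41 and 0.464% in enzyme-only libraries, and 1 buffer-only library listed it, at 0.382%. That of cluster B stood at 1.49, 1.85 and 2.08% in RBFOX2-INSCRIBE, 1.25, 0.991 and 1.24% in enzyme-only and 1.56, 0.604 and 0.739% in buffer-only libraries. That of cluster C stood at 0.879, 0.6295 and 1.17% in RBFOX2-INSCRIBE, 0.529, 0.656 and 0.793% in enzyme-only and 0.0458, 0.110 and 0.0732% in buffer-only libraries. It passed the filter in RBFOX2-INSCRIBE replicate 3 alone, which gave the 18 filtered reads of the cluster. Thus a base inside a cluster of 1 list was also edited in the other groups. RBFOX2-INSCRIBE and enzyme-only libraries did not overlap in cluster B, where buffer-only replicate 1 lay among the RBFOX2-INSCRIBE libraries, and they overlapped in clusters A and C, and none of these clusters holds UGCAUG.

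Other astrocyte genes were counted for comparison. Of 40 genes, 25 were tested. Between RBFOX2-INSCRIBE and enzyme-only sections 0 were called by edgeR, beside 1.74% of all genes, so this count is near that share. A log2 change above 0 was seen for 4, and the median was -0.37, beside -0.02 over all genes. Between RBFOX2-INSCRIBE and buffer-only sections 2 of the 25 were called higher, beside 1.42% of all genes, the bicarbonate transporter Slc4a4 (0.67 ± 0.17, edgeR adjusted p = 0.0153) and the cystine transporter Slc7a11 (1.03 ± 0.29, edgeR adjusted p = 0.0370), and the median was -0.18. Between enzyme-only and buffer-only sections 0 were called by edgeR, beside 0.273% of all genes, and 17 of 25 lay above 0. The median was 0.07, beside -0.01 over all genes. It was 0.81 for the 6 tested genes of the set, which had been chosen on this contrast. The 3 with the most edited reads were Cpe, Slc4a4 and Luzp2. Cpe, a carboxypeptidase of the secretory pathway, averaged 421 ± 64.2 CPM in RBFOX2-INSCRIBE, 447 ± 53.0 CPM in enzyme-only and 369.6 ± 59.4 CPM in buffer-only sections. Luzp2 averaged 256 ± 29.3, 331 ± 48.8 and 281 ± 88.3 CPM in the same order of groups.

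In the glutamate cycle, 10 of 12 genes were tested, and Slc1a2 was the 1 called in the comparisons with RBFOX2-INSCRIBE, against buffer-only, beside 1.42% of all genes called higher there. Among the lipoprotein genes 6 of 10 were tested, and the cholesterol exporter Abca1 was called lower in RBFOX2-INSCRIBE than in enzyme-only sections (-1.005 ± 0.27, edgeR adjusted p = 0.0300), beside 0.242% of all genes called lower there. Among gap junction and water genes 6 of 10 were tested and 0 were called by edgeR in either comparison with RBFOX2-INSCRIBE. Of all genes 1.74% were called against enzyme-only and 1.70% against buffer-only, so these counts are near those shares. Dtna, a dystrobrevin of the complex that anchors aquaporin 4, gave -0.05 ± 0.15 over buffer-only (edgeR adjusted p = 0.912).

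Edited reads on markers of other cells were counted in the same way. These levels measure filtered edits, and not the amount of RNA or of cells. The summed level of 8 neuron genes was 5060.4 to 5845 CPM with antibody and enzyme, 4919 to 5237 CPM with enzyme only and 4899.6 to 5138 CPM with buffer only. By edgeR 3 of the 8 were called higher in RBFOX2-INSCRIBE than in buffer-only sections, beside 1.42% of all genes. These were Snap25, Map2 and Nefl, named after their values were seen, and Nefl rested on a mean of 9.22 edited reads per library. Over buffer-only, 5 of the 8 lay above 0 with a median log2 change of 0.06. The lowest were Nrgn (-1.34) and Stmn2 (-0.94). The 7 oligodendrocyte genes summed to 389 to 549.8 CPM with antibody and enzyme, 627 to 690.2 CPM with enzyme only and 501 to 648 CPM with buffer only. The 7 microglia genes summed to 173 to 199 CPM, 202 to 333 CPM and 164 to 275 CPM in the same order of groups. For the 5 endothelial genes the sums were 247 to 296 CPM, 274 to 325 CPM and 207 to 251 CPM. The 4 choroid plexus genes summed to 131 to 148 CPM in RBFOX2-INSCRIBE, 151 to 182 CPM in enzyme-only and 137 CPM in each of the buffer-only libraries. Nearly all of this was Enpp2, which oligodendrocytes express too, and the defining genes Ttr and Folr1 had 0 filtered edited reads in all 9 libraries. Such a 0 does not show that their RNA was absent, since deeply covered Apoe was also at 0 in some libraries. The part of these cells in the results for the 8 genes was not tested.

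The genes whose pattern over the 9 libraries was most like the mean of the 8, by Pearson's r of centred log2 CPM among 9503 genes, were Pafah1b2 (r = 0.993), Tmem170b (r = 0.956) and Ptar1 (r = 0.954). The 9 points share 3 groups and the scaling to library size, so these values are descriptions.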

How the data were processed

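INSCRIBE libraries of 9 mouse brain sections were used. The authors trimmed single-end reads of about 100 nt with cutadapt, removed reads on repeats, aligned the rest to mm10 with STAR (2.5.2) and used SAILOR, which leaves out known variants, to call the edits. The deposited site lists hold counts of edited and covering reads and a confidence score per site. The authors called clusters with FLARE (false discovery rate 0.1, merge distance 15 nt), and the deposited cluster lists give counts of edited reads and, for recurrent lists, a mean depth (signal) and an adjusted p per window among other values. The lists used for recurrent clusters are the authors' clusters shared by 3 replicates, intersected with bedtools, before the step that subtracts buffer-only clusters. No deposited value is normalised and 0 sample columns were left unused.

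The 8 genes, the gene lists and the tests were chosen with earlier results of these data known. Sites with score above 0.5 and fraction below 0.8 were kept. A cluster label can name several genes, as 32.6 to 39.0% of labels did, and its reads were then counted for each. Counts of 9 libraries were fitted with edgeR 4.0.16 (R 4.3.3, TMM, filterByExpr, quasi-likelihood, Benjamini-Hochberg over all genes). DESeq2 1.42.0 was an alternative, with other filters, assignments, an offset for cover, each library left out and replicate numbers as a block. Single measures were tested by two-sided exact permutation, 3 libraries against 3 (scipy 1.17.1). Same-numbered libraries deviated from their group means with correlations of -0.07 to 0.09 over genes, so the numbers were not taken to pair sections. Gene regions came from GENCODE annotation of GRCm38, and all 3903241 listed sites with a known base were C on their strand. On simulated data for RBFOX2-INSCRIBE against enzyme-only over 9042 genes, 30% of genes changed 2-fold and 100% of genes changed 4-fold were recovered, and 4.41% of calls were false. Intervals of edited fractions are Wilson 95% intervals and cover counting error only. All 8 genes were described in every comparison, of the other astrocyte genes the 3 with the most edited reads and any called were named, of other lists at most 2 by edited reads and those called, and the first sites shown were among those that passed the filter in the most libraries. Aqp4 sequences were not read. HEK293XT libraries were not used here. The values of 1 gene of the glutamate list are not reported here.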

Additional observations from a re-analysis of the deposited data

How the results depend on the processing

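Leaving out 1 library in turn gave 61 to 180 genes called between RBFOX2-INSCRIBE and enzyme-only sections (165 with all), 68 to 208 between RBFOX2-INSCRIBE and buffer-only sections (162 with all) and 8 to 36 between enzyme-only and buffer-only sections (26 with all). In the same order of comparisons, DESeq2's Wald test called 54, 76 and 49 genes, sites under at least 20 reads of cover gave 270, 100 and 106, sites on annotated gene spans gave 67, 101 and 45, and mean cover as an offset gave 12, 41 and 2. Every listed site on annotated spans, chosen after seeing the data, gave 342 calls between RBFOX2-INSCRIBE and buffer-only and 143 between enzyme-only and buffer-only sections. Between enzyme-only and buffer-only sections, 20 of the 26 calls were higher, whereas 4 of the 49 by DESeq2, 37 of the 106 at higher cover, 17 of the 45 on annotated spans and 75 of the 143 over every listed site were. The cause was not tested.

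With the replicate number as a block, 125, 131 and 13 genes were called in the same order, and no call of the 6 tested genes changed. Permutation within replicate numbers cannot give a p below 0.25, and the numbers were not taken to pair the sections.

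For RBFOX2-INSCRIBE over enzyme-only, where none of the 6 tested genes was called under any alternative, the log2 change reversed over every listed site in clusters for Slc1a3 (-0.068) and Glul (-0.11), on annotated spans for Aqp4 (0.10), with the cover offset for Sparcl1 (-0.00093), Slc1a2 (-0.43), Slc1a3 (-0.11) and Aqp4 (0.14), over every listed site on annotated spans for Sparcl1 (-0.053), Slc1a2 (-0.077), Slc1a3 (-0.14), Aqp4 (0.10) and Glul (-0.022), and with 1 library left out for Aqp4 (-0.19 to 0.041 over the 6 libraries) and Slc1a3 (-0.14 to 0.33). With the cover offset Sparcl1 was at -0.39 both for RBFOX2-INSCRIBE and for enzyme-only over buffer-only, Slc1a2 lost its call (0.015) and Glul was at -0.69 for enzyme-only over buffer-only.

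For the base before the edited C, the difference of RBFOX2-INSCRIBE from enzyme-only was 1.72 points when each edited read was counted, and -4.28 to 0.675 points with 1 library left out. The edited share of cover differed by 0.158 points between RBFOX2-INSCRIBE and buffer-only when each site counted once, and by -0.578 points between enzyme-only and buffer-only over every listed site, or -0.124 to 0.212 points with 1 library left out. The cluster difference from enzyme-only was -0.0659 per 1000 clusters. The exonic share kept its sign under every alternative run, but for RBFOX2-INSCRIBE over enzyme-only it was 0.970 points with each site counted once and 3.11 points at a cover of at least 20 reads, both with overlap, and 4.93 to 7.22 points as libraries were left out. A stricter adjusted p for library clusters was not run, because those tables hold none. Few filtered edited reads limit Apoe, Clu, Gja1 and Glul most, with 0 to 25 per library, although Apoe, Clu and Glul were deeply covered and most of their listed sites did not pass the filter.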

Other observations

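The 8 letters ACATAGAT, read from the base before the edited C, were shared by Slc1a2 sites 1 and 3 and Gja1 site 2. This was noticed after the sequences were seen and is given as a description. The letters were taken from these much-read sites, so their share of the reads of the 8 genes was set beforehand and cannot be weighed against that over all genes. Sites with these letters held 79, 47 and 61 of the filtered edited reads of the 8 genes in RBFOX2-INSCRIBE libraries, or 9.62, 7.63 and 8.31%. They held 58, 73 and 58 reads, or 10.8, 11.8 and 10.9%, in enzyme-only libraries and 45, 43 and 32 reads, or 12.8, 16.7 and 13.8%, in buffer-only libraries. The number of reads was thus lowest in buffer-only libraries, where the other edited reads of the 8 genes were also fewest. Of the filtered edited reads of all genes, such sites held 0.0309 to 0.0432% with antibody and enzyme, 0.0301 to 0.0375% with enzyme only and 0.0223 to 0.0299% with buffer only. The reads of the 8 genes are part of those of all genes, 79 of 146 in RBFOX2-INSCRIBE replicate 1. Slc1a2 carried 488 reads with these letters at 2 sites over the 9 libraries, and Gja1 carried 8 at 1 site.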
